A study of Mus musculus with 8 samples.

Results

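The shSLX and shSLY transgenes were compared directly in mouse round spermatids, haploid cells on their way to becoming sperm, by subtracting the effect of one on each probe from the effect of the other. Of the 8 arrays in the series, 7 carried this comparison. The shSLX group held 2 arrays of spermatids with an RNAi construct against SLX. Its effect was taken against wildtype 3 and 4, which carried no transgene and by their array labels lay on the same slide. The shSLY group held 2 arrays of spermatids with an RNAi construct against SLY (sh367 in the sample titles), and its effect was taken against wildtype 1, the 1 wildtype array on their slide. Wildtype 2 was alone on a slide and had no weight. All males were 8 weeks old, and the controls are described as matched for strain. The name of the strain, the promoter behind the constructs and the number of animals or transgenic lines are not given in the sources used here. Separate animals are not mentioned for the arrays of a group, so a p-value here reflects the spread among these arrays and that spread may be technical. The number of arrays, above all the lone wildtype behind shSLY, limits the precision. Wildtype 1 could not be left out of the fit, so results with 1 array left out do not cover it.

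The mouse X chromosome carries many copies of Slx and Slxl1, and the Y chromosome many copies of the related gene Sly. The proteins are made in spermatids. SLY is known to hold down genes of the sex chromosomes after meiosis, and SLX is known to act against it, with both binding spindlin relatives such as SSTY1. The comparison addressed whether lowering the one and lowering the other moves spermatid genes in opposite or in shared directions. The signal of Sly itself goes against the labels: it was below wildtype on the arrays labelled shSLX and near wildtype on those labelled shSLY. Slx and Slxl1 were not among the tested genes. Gm14525, Gm5935 and Gm5168, with promoters near copies of that of Slx, stood below wildtype on arrays labelled shSLX and above it on those labelled shSLY. Their probes may not separate them from Slx copies. Median effects over the X genes tested were -0.028 for shSLX and 0.43 for shSLY, and over the Y genes -0.092 and 0.51. An exchange of the shSLX and shSLY labels is possible and cannot be told apart from correct labels here. Other mismatches are possible too: in the other deposited table, shSLY ranks stand under wildtype headers and shSLX ranks under shSLY headers. The names shSLX and shSLY below therefore stand for the arrays labelled so, and every direction rests on those labels.

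The direction in which genes differed was split by chromosome. Autosomal genes with the 5 largest differences past the test, Fndc3a, Tmod4, Chil3, Chil4 and Stfa1, stood higher in the shSLX effect than in the shSLY effect, by 2.20 to 3.03 on the log2 scale. X and Y genes led by Gm14594, Rhox11 and Gm14525 stood lower, by 1.75 to 2.12. The tissue kallikrein genes Klk1b5 and Klk1b9 rose on the arrays labelled shSLX and on those labelled shSLY. In limma's test of the difference, 298 of 16572 tested probes passed (adjusted p under 0.05, 1.8% of those tested), of which 194 were higher (1.17%) and 104 lower (0.628%) in shSLX. Of the 298, 77 had no gene name and so no chromosome here. Each of the 38 X probes and 5 Y probes that passed was lower in shSLX, while of the 177 autosomal probes 158 were higher and 19 lower. Those counts leaned on single arrays: 14 probes passed without wildtype 3, 13 without wildtype 4, 44 without shSLY 1 and 32 without shSLY 2, against 793 without shSLX 1 and 1695 without shSLX 2.

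The identity of the arrays needs a caution that touches every direction given here. It also touches the slide of each array, read from the array labels, and so the wildtype set against each transgene. The deposited normalized table, named by sample, was used throughout, and the deposited non-normalized table matches it by name for only 2 of the 8 arrays. Under its own column headers 21 probes differed (3 higher and 18 lower), 14 of them among the 298 and 5 with the same sign. Of the 35 named probes, Gm14525 kept its direction and call there (-2.90, limma adjusted p = 0.0318), and 19 kept their direction without passing. Among these were Fndc3a (1.48, adjusted p = 0.0742), Rnf170 (0.97, 0.325), Ntm (0.13, 0.952) and Rhox11 (-1.86, 0.223). The other 15 turned direction. The differences of Chil3, Chil4, Strn, Tmod4, Stfa1, Gm14594, Jund and Sly and the shared movement of the kallikreins, 1110008P14Rik and Tpte did so, past the threshold for Stfa1 (-2.56, adjusted p = 0.0443) and Egfbp2 (-0.61, 0.0421). Sly itself, the check of the labels, had log2 signals of 9.45 and 8.93 on the shSLX arrays, against 10.05 and 10.04 on wildtype 3 and 4. On the shSLY arrays it had 10.56 and 10.26, against 10.52 on wildtype 1. It was thus below its wildtype on both arrays labelled shSLX (effect -0.86, adjusted p = 0.0377) and around it on the arrays labelled shSLY (effect -0.11, adjusted p = 0.959). The difference did not pass (-0.75 ± 0.27, limma adjusted p = 0.257), but it passed in 4 of 18 alternative fits. These included the fit without shSLX 1 (-1.01), and those with the slide dropped (-1.22, adjusted p = 0.00547) or made a random effect (-1.05, 0.0228). The replicate block in place of the slide also passed (-1.22, 8.92e-04). All but the first drop or loosen the slide term, and for Sly wildtype 3 and 4 minus wildtype 1 was -0.47. Under the headers of the other table the difference was 0.49 (adjusted p = 0.784), which is lower in shSLY. Errors here and below are standard errors of the fit.

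Across all 16572 tested probes the 2 effects were almost unrelated, with a Pearson correlation of -0.038 that is a description only, since probes are not replicates. They share no array, which left the correlation free of common controls. Signs were opposite for 8326 probes (50.2%) of all tested and for 237 (79.5%) of the 298, a share that the choice of differing probes favours. When a size of 0.5 on the log2 scale was asked of an effect, 26 of the 298 had opposite effects that both reached it. In 136 the shSLX effect alone did, 131 of them higher and 5 lower. In 126 the shSLY effect alone did, 37 with shSLX higher and 89 with shSLX lower. The opposite class held 5 probes without wildtype 3, 4 without wildtype 4, 12 without shSLY 1 and 10 without shSLY 2, against 50 without shSLX 1 and 68 without shSLX 2. The remaining 10 were 3 with both effects on the same side and 7 with neither of this size. Both effects passed on their own in 8 probes: 4 opposite (Fndc3a, both probes of Rnf170 and the unnamed probe ILMN_2430374) and 4 in the same direction (2 probes of Klk1b5, Klk1b9 and 1110008P14Rik). For reading these, 2.41% of tested probes passed for the shSLX effect and 0.712% for the shSLY effect.

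**Figure D1:**
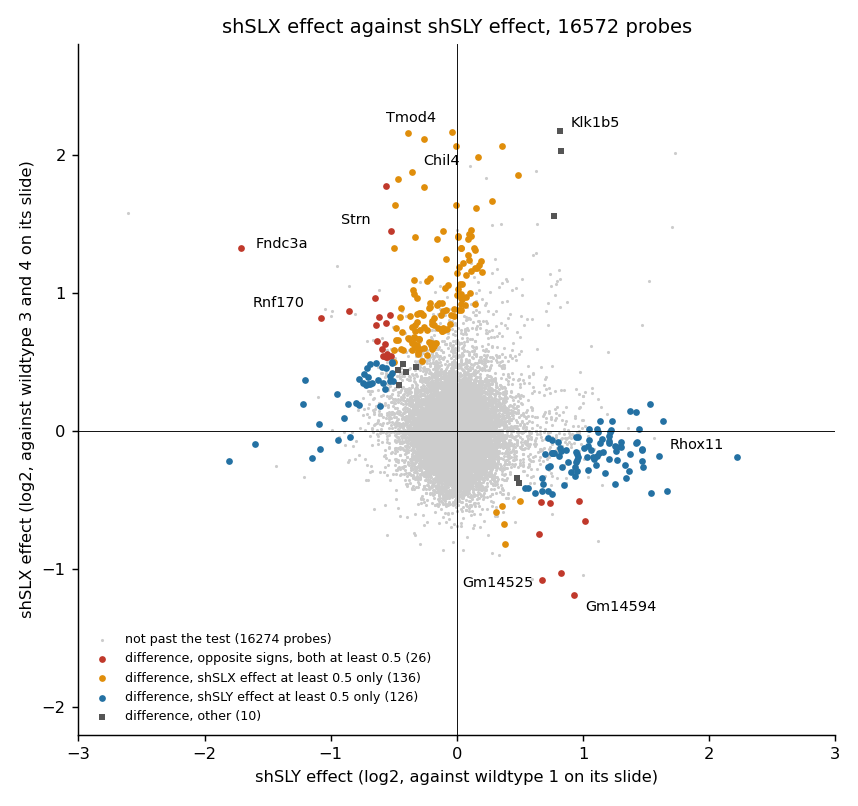
Each point is 1 of 16572 probes, with the shSLY effect on the horizontal and the shSLX effect on the vertical axis (both log2, against wildtype on the same slide). Coloured points passed the test of the difference: 26 with opposite effects, 136 with a shSLX effect of at least 0.5 only, 126 with a shSLY effect of at least 0.5 only and 10 others; 1 probe lies outside the axes.

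The opposite class began with genes above wildtype in shSLX and below it in shSLY, 18 probes of 16 genes, all autosomal. Their differences ran from 1.06 to 3.03, with shSLX effects of 0.53 to 1.77 and shSLY effects of -1.71 to -0.52. Fndc3a, whose loss in mice disrupts the adhesion of spermatids to Sertoli cells, had log2 signals of 9.50 and 9.50 with shSLX, against 8.24 and 8.12 in wildtype 3 and 4. It had 6.62 and 6.67 with shSLY, against 8.36 in wildtype 1. No shSLX or shSLY array overlapped its wildtype, and the 3 wildtype arrays lay close together between the transgenic groups. Fndc3a rose by 1.32 in shSLX (2.50-fold) and fell by 1.71 in shSLY (3.27-fold), a difference of 3.03 ± 0.16 (limma adjusted p = 1.65e-04). It kept its call in each fit with 1 array other than wildtype 1 left out, with the highest adjusted p at 0.0101 without wildtype 4. Under the headers of the other table it missed the call.

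Rnf170, a ubiquitin ligase of the endoplasmic reticulum that acts on inositol trisphosphate receptors, showed the pattern with both of its probes. The stronger had 9.87 and 9.74 with shSLX, against 9.0 and 8.98 in wildtype 3 and 4, and 7.87 and 8.07 with shSLY, against 9.04 in wildtype 1. The transgenic arrays again stood on either side of all 3 wildtype arrays. It rose by 0.82 in shSLX and fell by 1.07 in shSLY, a difference of 1.89 ± 0.17 (limma adjusted p = 0.00283). The other probe rose by 0.87 and fell by 0.85, with a mean of the 2 effects at 0.0086, so its opposite movements were of nearly equal size. Without wildtype 3 or wildtype 4 the call on the stronger probe was lost (adjusted p = 0.0553 and 0.0592).

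The next 4 genes of this class had a shSLX rise that passed on its own, beside a lower shSLY level that did not. Strn encodes striatin, a scaffold of protein phosphatase complexes, and had 8.02 and 8.09 with shSLX, against 6.61 and 6.61 in wildtype 3 and 4. With shSLY it had 6.30 and 6.28, against 6.81 in wildtype 1. These shSLY signals sat on average below 6.302, the 95th percentile of probes never detected, so background limits how far down Strn could be measured. Its shSLX effect was 1.44 and its shSLY effect -0.52 (adjusted p = 0.116), a difference of 1.96 ± 0.15 (limma adjusted p = 0.00104). Ntm, a neuronal adhesion protein gene, had 9.04 and 9.02 with shSLX against 8.17 and 7.97 in wildtype 3 and 4. With shSLY it had 7.67 and 7.69 against 8.33 in wildtype 1. None of these groups overlapped, and the difference was 1.60 ± 0.17 (limma adjusted p = 0.00547). Strn kept its call in each fit with 1 array other than wildtype 1 left out, and Ntm missed the threshold without wildtype 4 (adjusted p = 0.0713).

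Sgms1, a sphingomyelin synthase gene, differed by 1.44 ± 0.16 (limma adjusted p = 0.00712) in 1 of 3 tested probes, with 2 of the 3 on this side. Its call was lost without wildtype 3 or wildtype 4 (adjusted p = 0.0754 and 0.0950). Among the class members beyond the naming rule, chosen after their values were seen, Ranbp6 (1.41), Ercc6l2 (1.34), Pemt (1.37), Pcca (1.20) and Gusb (1.12) differed with shSLX effects of 0.54 to 0.84. Ranbp6 belongs to the importin family, Ercc6l2 to the SNF2 family of DNA-dependent ATPases, and Pemt, Pcca and Gusb encode metabolic enzymes of phosphatidylcholine synthesis, propionate breakdown and lysosomal glucuronide cleavage.

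**Figure D2:**
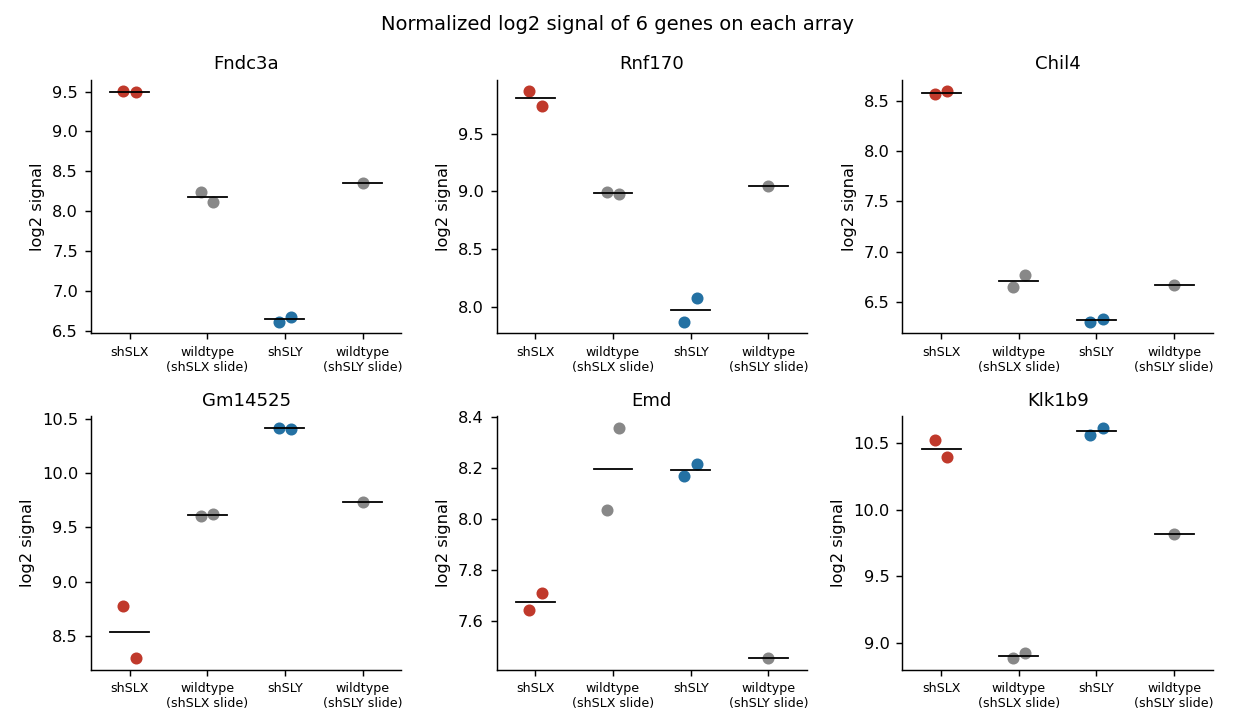
Normalized log2 signal of Fndc3a, Rnf170, Chil4, Gm14525, Emd and Klk1b9 on each array; points are arrays and bars group means, in the order shSLX, wildtype 3 and 4, shSLY, wildtype 1. Fndc3a and Rnf170 show shSLX above and shSLY below wildtype, Gm14525 the reverse, and Klk1b9 has similar transgenic levels (10.46 and 10.59 on average) over unlike wildtype levels.

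Chil3 and Chil4, neighbouring genes for secreted chitinase-like proteins known from inflamed tissue, rose together in shSLX. Their promoters are shown because both genes rose and the sequences are near copies: 92.6% of 271 aligned bases were identical over the 300 bases that RefSeq places around each start (GRCm38.p6, 250 before to 50 after, both on the minus strand). Chil3 is at chr3:106167515-106167814 and Chil4 at chr3:106219430-106219729, and capitals mark their longest shared run, 53 bases, which was found on either strand in those 2 of 32851 promoters (0.00609%).
Chil3: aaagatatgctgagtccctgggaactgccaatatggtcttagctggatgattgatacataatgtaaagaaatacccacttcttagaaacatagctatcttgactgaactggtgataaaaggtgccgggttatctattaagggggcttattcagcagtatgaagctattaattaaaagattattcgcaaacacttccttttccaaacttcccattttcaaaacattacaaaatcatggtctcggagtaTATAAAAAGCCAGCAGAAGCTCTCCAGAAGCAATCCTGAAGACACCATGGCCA
Chil4: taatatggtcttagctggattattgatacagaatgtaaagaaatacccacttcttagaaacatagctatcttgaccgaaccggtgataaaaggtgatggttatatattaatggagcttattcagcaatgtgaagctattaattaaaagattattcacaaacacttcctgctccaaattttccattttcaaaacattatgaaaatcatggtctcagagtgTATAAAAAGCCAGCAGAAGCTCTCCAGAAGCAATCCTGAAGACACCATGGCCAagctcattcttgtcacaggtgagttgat
Chil4 had 8.57 and 8.60 with shSLX, against 6.65 and 6.77 in wildtype 3 and 4, and 6.30 and 6.33 with shSLY, against 6.67 in wildtype 1. The shSLX arrays stood far above all others, which lay near background. Its shSLX effect was 1.87 and its shSLY effect -0.36, a difference of 2.23 ± 0.16 (limma adjusted p = 7.22e-04). The call held in each fit with 1 array other than wildtype 1 left out. The 2 Chil3 probes differed by 2.33 and 2.29, one with a shSLY effect of -0.56 and in the opposite class, the other at -0.47 and just outside it. For that other probe the shSLY mean of 6.28 lay below 6.302, the background mark used for Strn. Its shSLY effect, its difference and its class thus depend on a level not above background. The opposite-class probe had a shSLY mean of 6.32, barely above that mark, and its shSLY effect did not pass (limma adjusted p = 0.127). Near-identical transcripts can bind each other's probes, so the genes cannot be told apart here. Of 5 tested chitinase-like genes these 2 differed, against 1.94% of all genes tested, but they may be 1 signal and cannot be counted as independent genes. Chil5 (0.39), Chit1 (0.05) and Chia1 (-0.27) did not differ. The chitinase-like list was chosen with earlier results of these data known, so its share is a description only.

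Other genes rose in shSLX with shSLY near wildtype. Tmod4, which caps actin filaments in striated muscle, had 9.79 and 9.88 with shSLX, against 7.67 and 7.67 in wildtype 3 and 4, and 7.64 and 7.75 with shSLY, against 8.08 in wildtype 1. All 3 of its probes differed, the strongest by 2.55 ± 0.16 (limma adjusted p = 4.77e-04), a call that held with any 1 array but wildtype 1 left out. Stfa1, a stefin that inhibits cysteine proteases, had 8.39 and 8.68 with shSLX, against 6.35 and 6.41 in wildtype 3 and 4. With shSLY it had 6.46 and 6.61, against 6.57 in wildtype 1, so only the shSLX arrays stood apart. Its difference was 2.20 ± 0.20 (limma adjusted p = 0.00257) and lost its call without wildtype 3 or wildtype 4 (adjusted p = 0.0553 and 0.0535). Of 9 tested striated muscle genes, Tmod4 and Myl2, a myosin light chain gene (1.81 ± 0.16), differed, both higher, against 1.35% of all genes tested. Myl3 was at 0.84 and Tnnc1 at 0.37 without passing, and the list's median difference was 0.35, against 0.005 over all genes tested. Of 9 beta-defensin genes 1 was higher, set beside the same 1.35%: Defb21 differed (2.13 ± 0.15, limma adjusted p = 7.22e-04), with effects of 1.64 in shSLX and -0.49 in shSLY. The muscle and beta-defensin lists were chosen with earlier results of these data known, so their shares are descriptions only.

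Where shSLY supplied the movement and shSLX stood higher, the sizes were smaller. Capn13 (1.17 ± 0.17), a calpain protease gene, Rmc1 (1.17 ± 0.19), a regulator of endosomal RAB7 activation, 4930503L19Rik (1.15 ± 0.17) and Fut10 (1.15 ± 0.20), a fucosyltransferase gene, led this group, with limma adjusted p of 0.0156 to 0.0305. For Capn13 the shSLY mean of 6.21 lay below the background mark of 6.302, so its shSLY effect and its difference are set against a level not above background, and its place among the 4 is uncertain. Of these, 4930503L19Rik fell in shSLY on its own test (-0.78, adjusted p = 0.0412), and its 7.93 and 7.90 with shSLY lay below 8.69 in wildtype 1. For the others the shSLY effects of -0.74 to -0.68 did not pass alone. Each of the 4 also stood 0.38 to 0.48 above wildtype in shSLX, short of the size asked. All 4 lost their call without wildtype 3, wildtype 4, shSLY 1 or shSLY 2, with adjusted p of 0.0763 to 0.202, and Fut10 also with wildtype 1 and 2 joined (0.061).

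The rest of the opposite class, with both effects at least 0.5 in size, lay below wildtype in shSLX and above it in shSLY. These 8 probes comprised 5 X-linked genes and 3 unnamed probes. The first 2 lie beside the Slx loci. Gm14594 had 10.22 and 9.43 with shSLX, against 10.92 and 11.10 in wildtype 3 and 4, and 12.28 and 12.02 with shSLY, against 11.22 in wildtype 1. Gm14525 had 8.77 and 8.30 with shSLX, against 9.61 and 9.62 in wildtype 3 and 4, and 10.42 and 10.41 with shSLY, against 9.74 in wildtype 1. For both, every shSLX array was below and every shSLY array above all 3 wildtype arrays. Gm14594 fell by 1.19 in shSLX and was at 0.93 in shSLY (adjusted p = 0.257), a difference of -2.12 ± 0.36 (limma adjusted p = 0.0274). Gm14525 fell by 1.08 in shSLX and was at 0.67 in shSLY (adjusted p = 0.193), a difference of -1.75 ± 0.23 (limma adjusted p = 0.0154).

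Promoters of Gm14525 and of Gm5935, another X gene beside Slx, were set beside that of Slx to see what these genes share in sequence. In RefSeq (GRCm38.p6, 300 bases each, minus strand) Slx is at chrX:26545516-26545815, Gm14525 at chrX:26702589-26702888, Gm5935 at chrX:24775115-24775414 and Gm5168 at chrX:26050992-26051291. Capitals mark the longest run shared by Slx, Gm14525, Gm5935 and Slxl1, which is 18 bases long.
Slx: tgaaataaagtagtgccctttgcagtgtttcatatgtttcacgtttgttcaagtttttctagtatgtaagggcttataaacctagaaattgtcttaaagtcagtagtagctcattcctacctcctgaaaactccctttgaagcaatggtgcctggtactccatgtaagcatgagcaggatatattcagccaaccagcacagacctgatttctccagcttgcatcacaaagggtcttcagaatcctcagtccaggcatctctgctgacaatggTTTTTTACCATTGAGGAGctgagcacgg
Gm14525: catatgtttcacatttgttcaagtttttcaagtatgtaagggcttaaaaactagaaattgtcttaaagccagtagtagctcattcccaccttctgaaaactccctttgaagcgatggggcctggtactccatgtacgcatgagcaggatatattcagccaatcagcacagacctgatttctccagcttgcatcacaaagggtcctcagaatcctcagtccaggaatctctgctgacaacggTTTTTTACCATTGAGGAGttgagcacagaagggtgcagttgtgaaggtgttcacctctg
Gm5935: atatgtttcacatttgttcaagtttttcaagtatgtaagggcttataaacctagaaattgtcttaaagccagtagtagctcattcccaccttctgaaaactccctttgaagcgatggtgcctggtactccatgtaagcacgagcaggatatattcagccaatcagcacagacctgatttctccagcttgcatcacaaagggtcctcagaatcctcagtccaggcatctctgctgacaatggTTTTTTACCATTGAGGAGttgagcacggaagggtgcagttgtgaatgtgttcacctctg
Gm5168: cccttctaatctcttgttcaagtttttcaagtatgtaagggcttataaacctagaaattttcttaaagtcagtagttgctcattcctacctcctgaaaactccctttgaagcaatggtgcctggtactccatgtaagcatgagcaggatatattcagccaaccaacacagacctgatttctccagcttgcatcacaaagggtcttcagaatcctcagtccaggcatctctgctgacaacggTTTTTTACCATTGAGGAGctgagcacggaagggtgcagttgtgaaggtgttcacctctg
Identity to the Slx promoter was 94.4% for Gm14525, 96.3% for Gm5935, 96.2% for Gm5168 and 90.6% for Slxl1, over 266 to 277 aligned bases. Searched on both strands, the run was present in 24 of 32851 promoters (0.0731%), each of a different gene. Of those 24 genes 3 were tested on the arrays: Gm14525, Gm5935 and Gm5168, the last found by this search and not by its values. Gm5168 had 9.55 and 8.68 with shSLX, against 10.35 and 10.02 in wildtype 3 and 4, and 10.72 and 10.74 with shSLY, against 10.14 in wildtype 1. Gm5935 had 12.30 and 11.51 with shSLX, against 13.02 and 13.02 in wildtype 3 and 4, and 13.10 and 13.17 with shSLY, against 12.73 in wildtype 1. Both had shSLX arrays below and shSLY arrays above their wildtype. Differences were -1.67 ± 0.38 for Gm5168 (limma adjusted p = 0.0756) and -1.52 ± 0.34 for Gm5935 (0.0668), neither past the threshold, although the fall of Gm5935 in shSLX passed (-1.11, adjusted p = 0.032). With promoters this alike, the transcripts may be too, and probes may not separate these genes from Slx copies, so they cannot be counted as independent genes.

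The other 3 X genes of this class had effects that did not pass singly in either transgenic group. Tspan6, a tetraspanin gene, differed by -1.48 ± 0.27 (limma adjusted p = 0.0376), with 10.12 and 10.01 in shSLY above 9.10 in wildtype 1. Wdr13, a WD repeat gene, differed by -1.18 ± 0.17 in its stronger probe (adjusted p = 0.0175), and both of its probes passed. Emd, which encodes emerin of the inner nuclear membrane, differed by -1.26 ± 0.20 (limma adjusted p = 0.0217), also with both probes. Its 7.64 and 7.71 with shSLX lay below 8.03 and 8.36 in wildtype 3 and 4, and its 8.17 and 8.21 with shSLY lay above 7.45 in wildtype 1. Wildtype 3 and 4 thus averaged as high as the shSLY arrays. The shSLX and shSLY arrays themselves were 0.52 apart for Emd, and 0.74 of its difference came from the wildtype arrays of the 2 slides. With no slide term its difference was -0.52 and did not pass (adjusted p = 0.195), while a random slide block gave -0.79 (0.104). All 5 X genes lost their call without wildtype 3, wildtype 4, shSLY 1 or shSLY 2, with adjusted p of 0.0615 to 0.231. With a normexp offset of 16, Gm14594 and Tspan6 also missed it (0.0509 and 0.0702).

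Of the 38 X probes that differed, 32 reached 0.5 in the shSLY effect only. Rhox11, a homeobox gene, had 7.90 and 7.34 with shSLX, against 7.75 and 7.85 in wildtype 3 and 4, and 9.47 and 9.25 with shSLY, against 7.75 in wildtype 1. The shSLX arrays lay on both sides of wildtype, and the shSLY arrays were above every other array. Its difference was -1.79 ± 0.28 (limma adjusted p = 0.0216). Gm15104 (-1.68 ± 0.20), 4930519F16Rik (-1.66 ± 0.16) and Gm14725 (-1.63 ± 0.20) followed with shSLX effects of -0.38 to -0.21, none past the threshold, and shSLY rises of 1.25 to 1.47. Without wildtype 3 or wildtype 4 all 4 lost their call (adjusted p of 0.0707 to 0.175), and without shSLY 1 or shSLY 2 Rhox11 did (0.0936 and 0.0716).

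Detected X and Y genes mostly stood lower in the shSLX effect than in the shSLY effect. Over the 263 of 710 X genes on the array that passed the detection filter, the median shSLX effect was -0.028, the median shSLY effect 0.43 and the median difference -0.44. With no filter the median X difference was -0.083. Over 16 of 19 Y genes these were -0.092, 0.51 and -0.76, and none of the 16 had a difference above 0. Autosomes lay at 0.012 over 9137 genes, and their single chromosomes ran from -0.019 to 0.047. By 1 probe per gene, 33 X genes and 5 Y genes were lower in shSLX past the threshold (12.5% and 31.2% of those tested) and none was higher, while 1.58% of autosomal genes differed. X medians were 0.083 and -0.12 on the 2 shSLX arrays, against 0.43 and 0.41 on the shSLY arrays. The shSLX arrays thus disagreed in sign and the shSLY arrays were alike. Across 348 X probes the correlation of the effects was -0.19, but by pairs of arrays it ran from -0.39 and -0.30 with shSLX 2 to -0.0057 and 0.10 with shSLX 1, so the opposite lean within X rested on shSLX 2.

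**Figure D3:**
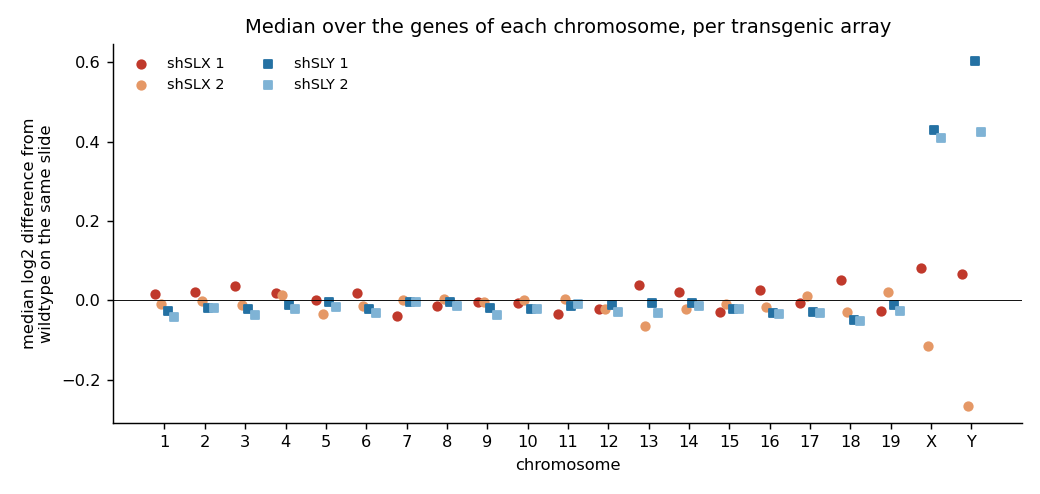
Median log2 difference from wildtype on the same slide over the genes of each chromosome, for each of the 4 transgenic arrays (circles shSLX, squares shSLY). All autosomal medians lie near 0, both shSLY arrays are at 0.41 to 0.60 on X and Y, and the shSLX arrays lie on either side of 0 there.

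A list of multicopy and testis-restricted genes, mostly X-linked, had 28 tested members with a median difference of -0.95. Of these 11 were lower in shSLX (39.3%) and none higher, against 0.582% lower of all genes and 12.5% of X genes tested. All 28 were above wildtype in shSLY, and 15 were in shSLX. Members that differed included Actrt1, an actin-related gene (-1.61 ± 0.26), Cypt2, of a family of cysteine-rich perinuclear theca proteins (-1.39 ± 0.26), Asb12, an ankyrin and SOCS box gene (-1.29 ± 0.17), and Tgif2lx1, a homeobox gene (-1.23 ± 0.20). Xlr4a (0.33), Akap4 (0.16), Magea5 (0.11) and the autosomal Cypt4 (0.07) were the 4 above 0, none past the threshold. Of 7 tested genes for SLX and SLY partners, the spindlin relatives Ssty1 (-1.36 ± 0.25, limma adjusted p = 0.0399) and Ssty2 (-1.10 ± 0.20, 0.0376) differed, against 1.94% of all genes and 31.2% of Y genes tested. Both are Y-linked and rose in shSLY (1.25 and 1.11) with shSLX at -0.11 and 0.01. The autosomal partners were at -0.70 for the histone methyltransferase gene Dot1l, 0.24 for Hdac3, 0.18 for Tbl1xr1 and 0.14 for Gps2, and X-linked Tbl1x was at 0.08. None of these passed. The autosomal Speer genes, a multicopy family expressed in spermatids, leaned the same way as X genes (median -0.37 over 9) with no member past the threshold. All these lists were chosen with earlier results of these data known, so their shares are descriptions only.

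Autosomal genes that were lower in shSLX were few. Jund, an AP-1 transcription factor gene, had 6.77 and 6.74 with shSLX, against 7.49 and 7.66 in wildtype 3 and 4, and 8.26 and 8.22 with shSLY, against 7.85 in wildtype 1. Both transgenic groups were clear of their wildtype on opposite sides, with a shSLX fall of 0.82 and a shSLY effect of 0.39 that did not pass (adjusted p = 0.327). Jund differed by -1.21 ± 0.17 (limma adjusted p = 0.0156), while Fosb (-0.49), Fos (-0.23), Egr1 (-0.19), Junb (0.04) and Ier3 (0.31) of the same list did not pass. Sav1, a Hippo pathway adaptor gene, Chdh, a choline dehydrogenase gene, and Lpxn, a focal adhesion gene, differed by -1.0, -0.90 and -0.90. For these last 3, 0.45 to 0.55 of the difference came from the wildtype arrays, and with no slide term none of them passed (adjusted p of 0.0841 to 0.202), nor did any in the random block fit (0.0567 to 0.113). With offset 16, Sav1 (0.0509) and Lpxn (0.0689) missed it. Sav1 was at -0.51 in shSLX and 0.498 in shSLY, just short of the 0.5 asked of both effects in the opposite class. Chdh (-0.54 and 0.36) and Lpxn (-0.59 and 0.31) also lay below wildtype in shSLX and above it in shSLY. All 4 genes lost their call without wildtype 3, wildtype 4, shSLY 1 or shSLY 2 (adjusted p of 0.0716 to 0.207).

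Shared movement was tested as the mean of the 2 effects. It passed for 157 probes (0.947%), 140 above (0.845%) and 17 below wildtype (0.103%), but 91 of these also differed between shSLX and shSLY, and in 16 both effects had the same sign and reached 0.5. Counts were 10 without wildtype 3, 7 without wildtype 4, 53 without shSLY 1 and 40 without shSLY 2, against 443 without shSLX 1 and 1226 without shSLX 2. Of the 16 probes 14 were above wildtype, and 6 of these belonged to tissue kallikrein genes of chromosome 7 or to Egfbp2, whose old symbol stands for a growth factor binding kallikrein.

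Kallikreins are serine proteases, and those of this family are near copies of one another, so a probe may read several. Klk1b5, with all 3 probes past the test, had 9.95 and 10.13 with shSLX, against 7.82 and 7.92 in wildtype 3 and 4, and 9.65 and 9.58 with shSLY, against 8.80 in wildtype 1. All 4 transgenic arrays were above their wildtype, and those of shSLX were the higher. It rose by 2.17 in shSLX and by 0.82 in shSLY, a mean effect of 1.49 ± 0.09 (limma adjusted p = 3.56e-04), and the 2 rises differed by 1.35 ± 0.17 (0.012). Klk1b9 had 10.52 and 10.40 with shSLX, against 8.89 and 8.93 in wildtype 3 and 4, and 10.56 and 10.62 with shSLY, against 9.82 in wildtype 1. The 4 transgenic arrays were nearly level, and the wildtype arrays were 0.91 apart. Its rises of 1.55 and 0.77 differed by 0.78 ± 0.16 (limma adjusted p = 0.0497). Both genes kept the mean-effect call with any 1 array but wildtype 1 left out. Klk1b26 (mean effect 1.75 ± 0.19, adjusted p = 0.00593) and Egfbp2 (0.96 ± 0.10, 0.00529) lost it without wildtype 3 or wildtype 4 (adjusted p of 0.0815 to 0.105). Over the 7 tested kallikrein genes all differences were above 0 (median 1.01), 4 passed, and the median wildtype gap was -0.82. Over all genes tested 50.6% of differences were above 0 and 1.94% passed. Since a probe may read several kallikreins, the 7 cannot be counted as independent genes. Their list was also chosen with earlier results of these data known, so the share is a description only.

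1110008P14Rik rose by nearly the same amount in both transgenic groups. It had 8.28 and 8.20 with shSLX, against 7.28 and 7.33 in wildtype 3 and 4, and 8.60 and 8.67 with shSLY, against 7.76 in wildtype 1. All 4 transgenic arrays were above their wildtype, it rose by 0.93 in shSLX and 0.87 in shSLY, and the difference was 0.06 ± 0.16. Its mean effect of 0.90 lost the call without wildtype 3 or wildtype 4 (adjusted p = 0.0522 and 0.0512). Col23a1, a transmembrane collagen gene, had a mean effect of 1.25 ± 0.14 (limma adjusted p = 0.00649) made up of 1.88 in shSLX and 0.63 in shSLY, and its difference of 1.25 ± 0.27 did not pass (0.0628). The mean effect lost its call without wildtype 3 or wildtype 4 (0.107 and 0.105). Beyond the naming rule, and chosen after their values were seen, Odf3b, a gene related to sperm tail outer dense fibres, was above wildtype in both of its probes (mean effects 0.67 and 0.69), and so were Lcn2 (0.65), which encodes a secreted siderophore-binding lipocalin, and Usp3 (0.80), a deubiquitinase gene. In the other direction Tpte, a gene expressed in testis, had 8.12 and 8.21 with shSLX, against 8.82 and 8.59 in wildtype 3 and 4, and 7.55 and 7.73 with shSLY, against 8.21 in wildtype 1. All 4 transgenic arrays were below their wildtype, with effects of -0.54 and -0.57 and a mean effect of -0.55 ± 0.09 (limma adjusted p = 0.0392). That call was lost without wildtype 3, wildtype 4, shSLY 1 or shSLY 2 (adjusted p of 0.109 to 0.245), when the slide was dropped (0.298) or fitted as a random block (0.149), and at offset 16 (0.0614).

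A difference of effects is the gap between the transgenic arrays less the gap between their wildtype arrays, and the 2 were separated for the 298 probes. In 282 the shSLX and shSLY arrays alone stood at least 0.5 apart in the direction of the difference. Wildtype 3 and 4 stood at least 0.5 from wildtype 1 in 25, and in 17 the wildtype gap was at least as large as the transgenic gap. For 3 genes the transgenic arrays leaned the other way: Col26a1 (transgenic gap -0.03, wildtype gap -0.89), Klk1b9 (-0.13 and -0.91) and Lyz1 (-0.45 and -1.59). In these 3 the difference lay in the wildtype arrays.

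**Figure D4:**
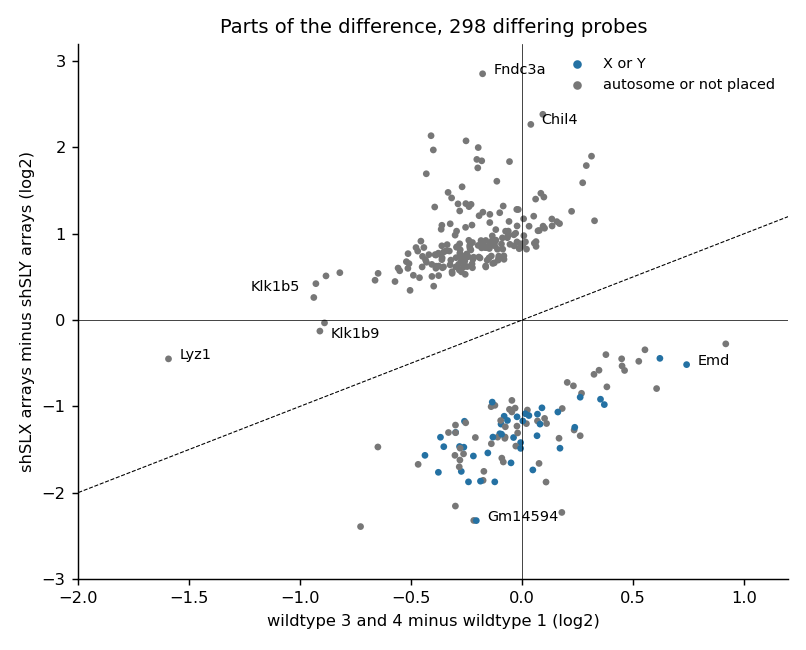
For the 298 differing probes, the gap between shSLX and shSLY arrays (vertical, log2) against the gap between wildtype 3 and 4 and wildtype 1 (horizontal, log2); the difference of effects is the first less the second, and the dashed line marks equal gaps. Most probes lie far above or below 0 with a wildtype gap near 0, X and Y probes (blue) all lie below the line, and Lyz1 and Klk1b9 have a large wildtype gap with transgenic arrays close together; 1 probe lies outside the axes.

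Markers of other testis cells moved with some of these groups. Linear signal was summed over all markers of a list on the array, so markers not detected added background to each sum. Of 11 round spermatid markers 9 were detected. The 11 summed to 122330 to 125690 with shSLX, 111010 to 117160 with shSLY and 115430 to 119570 in the 3 wildtype arrays. Stromal and peritubular markers, 4 of 10 detected with Col1a1, Col1a2, Col3a1 and Pdgfra among those not detected, summed to 1497 to 1523 with shSLX against 1008 to 1023 in wildtype 3 and 4. With shSLY they summed to 1159 to 1261 against 1200 in wildtype 1. In the shSLX effect 3 of the 4 tested stromal genes rose past the threshold, against 242 of all 9451 genes. Dcn, a matrix proteoglycan gene of this list, differed (1.02 ± 0.20, limma adjusted p = 0.042). Immune markers, 7 of 13 detected with Ptprc and Cd74 not detected, summed to 1552 to 1733 with shSLX against 1109 to 1190 in wildtype 3 and 4, and to 2067 to 2141 with shSLY against 1972 in wildtype 1. The shSLX arrays were thus above their own wildtype and below wildtype 1. In the shSLX effect 3 of the 7 tested immune genes rose past the threshold. Of the 7, Lyz1 differed (1.14, limma adjusted p = 0.0497). Its wildtype gap (-1.59) was larger than its transgenic gap (-0.45). Sertoli markers, 7 of 12 detected with Gata4 and Fshr not detected, summed to 1666 to 1831 with shSLX against 1683 to 1970 in wildtype 3 and 4, and to 2727 to 3183 with shSLY against 2557 in wildtype 1. All 7 had differences below 0 (median -0.28) and none passed. Leydig markers had 1 tested gene, with Star and Hsd3b1 among those not detected: Insl3, a hormone gene, was at -0.10 in shSLX and 0.57 in shSLY, and its difference of -0.68 did not pass (limma adjusted p = 0.377). Spermatogonial markers, 6 of 12 detected with Gfra1 and Stra8 not detected, summed to 1236 to 1292 with shSLX against 1078 to 1127 in wildtype 3 and 4, and to 1314 to 1373 with shSLY against 1340 in wildtype 1. Of these Sohlh1, a transcription factor gene of spermatogonia, rose in shSLX (0.73, limma adjusted p = 0.0121), and its difference of 0.77 did not pass (0.083). Meiotic markers, 13 of 16 detected with Sycp3 and Dmc1 not detected, summed to 15597 to 17105 with shSLX against 16464 to 17987 in wildtype 3 and 4. With shSLY they summed to 14367 to 14734 against 15085 in wildtype 1, and no member's difference passed. Their part in the differences of Chil3, Chil4, Stfa1, Tmod4 and the kallikreins was not tested. In bulk RNA, fewer cells of a type and less RNA per cell cannot be told apart.

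Lists of housekeeping and spermatid functions differed little. Respiratory chain genes had a median difference of 0.13 over 75, with 56 above 0 and none past the threshold, proteasome genes 0.12 over 32 with none, and ribosomal protein genes 0.10 over 57 with 1, Rplp1. Heat shock genes were at 0.005 over 20. Sperm tail genes (median -0.06 over 16) and spermatid transcription regulators (-0.10 over 11) had no member past the threshold. Sperm chromatin genes had a median difference of 0.11 over 11. Of these 1 passed, higher in shSLX (9.09%), against 1.35% higher of all genes tested. Of 17 acrosome genes 1 differed, the X-linked Spaca5 (-1.13 ± 0.19), against 1.94% of all genes and 12.5% of X genes tested.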

How the data were processed

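Total RNA of round spermatids purified by centrifugal elutriation was hybridised to Illumina mouse bead arrays, per the labels' protocols. Both deposited tables hold probe intensity for 45281 probes. The authors' normalized table was used by sample, made with BeadStudio and GenomeStudio per the submitters' processing notes, while versions and background treatment are not given in the sources used here. The deposited detection p-value of the non-normalized table served as a filter, under 0.01 in at least 2 of 8 columns, which needs no column identity. The ranks of 2 of its columns were those of the same sample, 4 those of another sample (shSLY samples under wildtype 3 and 4 headers, shSLX samples under shSLY headers), and 2 headed shSLX matched none (best rank correlations 0.893 and 0.916).

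Intensities were corrected with normexp (offset 50), quantile-normalized and converted to log2. The offset compresses folds of dim probes. Group and slide were fitted together over all 8 arrays with lmFit and eBayes (limma 3.58.1, R 4.3.3; 3 residual and 5.69 prior degrees of freedom), two-sided, with Benjamini-Hochberg adjustment over 16572 probes and a threshold of 0.05. Slides were read from the array labels. Between 13572 and 16113 probes were detected per column, and the lowest correlation between arrays was 0.973. Single-symbol names (34885 probes, 34807 updated through gene identifiers) and promoters came from GRCm38.p6 tables of RefSeq. For lists, 1 probe per gene was kept (9451 genes). Named genes were the 6 largest differences in each direction of the opposite class, the 4 largest where only 1 effect reached 0.5, the 6 largest shared effects, Sly, and list members past a test. Members and lists were chosen with earlier results of these data known. The fit was tested on simulated data. Same-numbered arrays of the 2 transgenic groups did not deviate together (correlation -0.06), so numbers were not taken as pairs. Alternatives covered the slide term, offset, filter, probe choice, variance trend, table and each array left out.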

Additional observations from a re-analysis of the deposited data

Results flagged for a closer look

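The results below stand out because the arrays labelled shSLX and shSLY had effects that differed in limma's test of the difference itself, with 298 probes past the threshold. On the higher side in shSLX were Fndc3a (3.03), Tmod4 (2.55), the 2 Chil3 probes (2.33 and 2.29), Chil4 (2.23), Stfa1 (2.20), Strn (1.96), Rnf170 (1.89), Ntm (1.60), Sgms1 (1.44), Klk1b5 (1.35), Capn13 (1.17), Rmc1 (1.17), 4930503L19Rik (1.15), Fut10 (1.15) and Klk1b9 (0.78). On the lower side were Gm14594 (-2.12), Rhox11 (-1.79), Gm14525 (-1.75), Gm15104 (-1.68), 4930519F16Rik (-1.66), Gm14725 (-1.63), Tspan6 (-1.48), Emd (-1.26), Jund (-1.21), Wdr13 (-1.18), Sav1 (-1.0), Chdh (-0.90) and Lpxn (-0.90). These are log2 differences, shSLX effect minus shSLY effect. For Strn, Capn13 and the Chil3 probe at 2.29 the shSLY mean was below the background mark of 6.302, so their sizes depend on a level not above background. The shSLY means of the Chil3 probe at 2.33 (6.32) and of Chil4 (6.31) were barely above it.

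In the 4 wildtype arrays, 1 array was marked as apart from the other 3 for 2 of 35 named probes. These were wildtype 1 for Col23a1 (8.17) and wildtype 4 for Rhox11 (7.85). The mark compares the gap with the range of the 4 arrays, so a small gap can earn it. For Rhox11 the other 3 were at 7.75 to 7.77, and for Col23a1 at 7.90 to 7.92. Chance marks about 1 in 20 such groups. Wildtype 1 is the array behind the shSLY effect of Col23a1.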

How the results depend on the processing

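Of 618 values of named genes under the alternatives, 482 kept direction and side of the threshold, 117 lost the call, 4 gained it and 15 reversed. Of the 482, 35 came from leaving out wildtype 2, which has no weight, so these could not change. The 15 reversals all came from the non-normalized table read by its own headers: differences of Chil3 (-0.63 and -0.67), Strn (-0.16), Tmod4 (-1.68), Chil4 (-0.81), Stfa1 (-2.56), Gm14594 (0.21), Jund (0.060) and Sly (0.49), and mean effects of Klk1b26 (-0.18), Klk1b5 (-0.39), Klk1b9 (-0.47), Egfbp2 (-0.61), 1110008P14Rik (-0.44) and Tpte (0.31). The 2 tables give arrays different names, and which is right is not settled here, so a direction can turn by construction. The 298 differing probes became 2445 with no slide term (1187 higher, 1258 lower, 270 shared), 1043 with the slide as a random block, 739 with wildtype 1 and 2 joined, 171 with offset 16, 175 with 1 probe per gene and 21 under those headers. The replicate block with no slide term gave 4383, as a check only, and could not be fitted beside the slide term, nor could wildtype 1 be left out. The 157 probes of the mean effect became 306 with the random block, 555 with wildtype 1 and 2 joined, 84 detected in all 8 columns, 88 with 1 probe per gene and 2852 under those headers. The 26 opposite probes became 52 with no slide term, 68 with the replicate block, 11 under those headers, 113 at size 0.3 and 1 at size 1. The X median of -0.44 became -0.58 with offset 16, -0.63 detected in all 8 columns, -0.083 with no filter and -0.64 under those headers. With 1 array left out the ranges were 13 to 1695 differing probes, 7 to 1226 for the mean, 4 to 68 opposite probes, -0.53 to -0.36 for X and -0.96 to -0.56 for Y. Except where the construction shows it, the cause was not tested.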

Other observations

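Some probes outside the naming rule, chosen after their values were seen, stood out. The unnamed probe ILMN_2476405 had log2 signals of 6.26 and 6.25 with shSLX, against 6.13 and 6.26 in wildtype 3 and 4, and 12.45 and 11.99 with shSLY, against 6.18 in wildtype 1. It was at background on every array but the 2 of shSLY, so no exact difference is given.

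The gene 1810044D09Rik had signals of 9.10 and 5.95 with shSLX, against 5.99 and 5.91 in wildtype 3 and 4, and 6.01 and 5.99 with shSLY, against 8.61 in wildtype 1. Only shSLX 1 and wildtype 1 stood above background, and the difference did not pass (limma adjusted p = 0.147).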
